A study of Mus musculus with 12 samples.

Results

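The subjects of this report are the 7 mouse genes that encode the invariant parts of the αβ T cell antigen receptor (TCR). They are the CD3 chains *Cd3e*, *Cd3d* and *Cd3g*, the ζ chain *Cd247*, the α constant region *Trac* and the β constant regions *Trbc1* and *Trbc2*. They were taken by symbol from the deposited count table, in which 7 of 49585 genes carried one of these names, and all 7 were among the 13118 genes tested after edgeR had set aside those with few counts. The choice set no limit on expression, but it was made with earlier results of these data known.

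The RNA-seq compared lymph node (LN) T cells of 4 groups with 3 samples each, 12 in all. B6 CD4+ and B6 CD8+ T cells came from C57BL/6 mice, in which the *Cd4* gene encodes the helper co-receptor CD4 and the *Cd8* genes encode the cytotoxic co-receptor CD8. CD8.1 and CD8.2 T cells came from CD8Dual mice (also called 8in4), in which both copies of *Cd4* were engineered to give CD8 instead of CD4, with the α chain in its CD8α.1 form together with CD8β. Their own *Cd8* genes are untouched and give the CD8α.2 form with CD8β. CD8.1 T cells thus carry a CD8 co-receptor made from the *Cd4* locus and CD8.2 T cells a CD8 co-receptor made from the *Cd8* locus, and the comparison asks whether lineage follows the locus or the co-receptor protein. All mice were labelled male and 6 to 10 weeks old, and each sample was RNA of pooled cells sorted as positive for TCRβ (antibody H57) and CD62L, a homing receptor of naive T cells. The methods add a CD44-negative gate that the labels do not give. All 4 groups were therefore sorted on surface display of the receptor whose genes are described here. No label says that samples of a group came from separate animals, so p-values measure the spread between samples, which may be technical. The strain and anything that went with it, such as litter or sorting day, cannot be told apart. Below, the *Cd4*-locus side means B6 CD4+ and CD8.1 T cells, whose co-receptor is made from the *Cd4* locus, and the *Cd8*-locus side means B6 CD8+ and CD8.2 T cells.

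The αβ TCR binds peptide and MHC through variable domains, which are joined to a constant region encoded by *Trac* in the α chain and by either *Trbc1* or *Trbc2* in the β chain. Neither chain can signal alone, since their cytoplasmic tails are very short. They assemble in the endoplasmic reticulum with CD3γ-CD3ε and CD3δ-CD3ε heterodimers and with a ζ-ζ homodimer, whose tails carry the ITAM motifs that Lck phosphorylates and ZAP-70 binds. A chain that finds no partner is degraded, and entry of the ζ dimer is the last step of assembly and allows export to the surface, so RNA levels need not equal surface levels.

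In the mouse genome (GRCm38, the build called mm10, GENCODE M21 annotation) the 3 CD3 genes lie together on chromosome 9. *Cd3g* (ENSMUSG00000002033.14) spans bases 44969572 to 44980431 on the minus strand, *Cd3d* (ENSMUSG00000032094.8) bases 44981786 to 44987339 on the plus strand and *Cd3e* (ENSMUSG00000032093.7) bases 44998740 to 45009627 on the minus strand. *Cd3g* and *Cd3d* start back to back, with 1354 bases between them. *Cd247* (ENSMUSG00000005763.15) lies on chromosome 1 at bases 165788681 to 165877277 on the plus strand, and *Trac* (ENSMUSG00000076928.5) on chromosome 14 at bases 54220521 to 54224206 on the plus strand. *Trbc1* (ENSMUSG00000076490.6) and *Trbc2* (ENSMUSG00000076498.2) lie on the plus strand of chromosome 6, at bases 41538218 to 41539881 and 41546730 to 41548352, with 6848 bases between them.

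*Trbc1* and *Trbc2* are near copies, and the sequences of their first 3 exons are shown because reads there can be told apart only by the few bases that differ. Exons 1 to 3 have the same 500 bases of length in both genes and differ at 19 positions (96.2% identity), and the longest stretch without a difference is 259 bases, longer than a single read. In exon 1 there is 1 difference in 375 bases (C260A, *Trbc1* base first, counted from the first base of exon 1). It stands in capitals in the window at chr6:41538462-41538492 of *Trbc1* and chr6:41546974-41547004 of *Trbc2*, both read from the GENCODE M21 transcripts.
Trbc1 exon 1 window: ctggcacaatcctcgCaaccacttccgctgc
Trbc2 exon 1 window: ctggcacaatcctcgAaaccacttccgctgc
The other 18 differences between these exons fall in the 125 bases of exons 2 and 3, shown spliced together (*Trbc1* chr6:41539114-41539335 and *Trbc2* chr6:41547610-41547878, intron between them left out) with the differing bases in capitals.
Trbc1 exons 2 and 3: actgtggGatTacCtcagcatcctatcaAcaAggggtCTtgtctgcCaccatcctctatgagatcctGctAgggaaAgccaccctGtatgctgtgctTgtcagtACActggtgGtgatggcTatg
Trbc2 exons 2 and 3: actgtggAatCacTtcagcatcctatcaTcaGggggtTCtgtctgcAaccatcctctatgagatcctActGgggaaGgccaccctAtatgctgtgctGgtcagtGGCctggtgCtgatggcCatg
Exon 4, of 237 bases in *Trbc1* and 192 bases in *Trbc2*, was not aligned between the genes, so the 19 positions are not all that may separate them. Read pairs that lie wholly inside exon 1, apart from those over base 260, match both genes equally, and RSEM divides such reads by estimated proportions. The split of counts between *Trbc1* and *Trbc2* is therefore uncertain, while their sum depends on it much less.

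The CD3 genes and *Cd247* have promoters of their own, unlike the constant regions, which are transcribed from the promoters of rearranged variable segments. The 250 bases before the start of *Cd3d* (chr9:44981536-44981785), *Cd3g* (chr9:44980432-44980681, minus strand) and *Cd247* (chr1:165788431-165788680), taken from RefSeq on GRCm38.p6, are shown because these 3 genes behaved differently in the comparisons. Capitals mark the ETS core GGAAG on either strand.
Cd3d promoter: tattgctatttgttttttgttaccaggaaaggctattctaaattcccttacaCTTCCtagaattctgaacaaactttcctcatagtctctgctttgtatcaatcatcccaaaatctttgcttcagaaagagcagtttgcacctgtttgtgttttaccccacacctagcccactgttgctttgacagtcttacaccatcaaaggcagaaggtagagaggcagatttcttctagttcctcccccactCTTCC
Cd3g promoter: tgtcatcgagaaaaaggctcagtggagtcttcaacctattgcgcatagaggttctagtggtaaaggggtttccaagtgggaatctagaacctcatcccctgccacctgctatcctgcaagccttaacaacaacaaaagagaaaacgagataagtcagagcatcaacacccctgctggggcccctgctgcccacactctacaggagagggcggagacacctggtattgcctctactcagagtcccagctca
Cd247 promoter: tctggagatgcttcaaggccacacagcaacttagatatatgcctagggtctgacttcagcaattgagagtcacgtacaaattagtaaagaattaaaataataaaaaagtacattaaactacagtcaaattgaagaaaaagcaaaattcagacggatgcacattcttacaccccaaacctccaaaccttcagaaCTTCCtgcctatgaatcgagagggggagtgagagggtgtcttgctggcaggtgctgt
The GGAAG core occurred 2 times before *Cd3d*, 0 times before *Cd3g* and 1 time before *Cd247*, and 64.1% of 32851 promoters of the same length held it. The E-box letters CANNTG occurred 1, 3 and 2 times in the same order, and 66.2% of promoters held them. The RUNX letters TGTGGT (14.05% of promoters) and the TATA letters TATAAA (12.4%) occurred in none of the 3. The window before *Cd3e*, which is not printed, held GGAAG 3 times, CANNTG 1 time and the other 2 motifs 0 times. These matches describe the windows and nothing was tested with them.

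The total count per sample was 18667474 to 37110502, and a member had 5550 to 33452 counts in a sample, so counting error was small for all 7 genes. CPM below are counts divided by the TMM-adjusted size of each library. A count of 3, the floor of detection, was 0.0875 to 0.167 CPM, and floors and intervals of counts cover counting error only. Co-receptor RNA matched the labels, with *Cd4* at 969 ± 53.0 CPM in B6 CD4+ T cells and 0.244 ± 0.120 CPM in B6 CD8+ T cells, and with *Cd8a* at 1423 ± 48.8 CPM in B6 CD8+ and 1.17 ± 0.428 CPM in B6 CD4+ T cells (SD, n = 3). In CD8Dual mice *Cd8a* had 1459.8 ± 30.4 CPM in CD8.2 and 192 ± 11.5 CPM in CD8.1 T cells, and its counts may hold reads of both loci. The 12 T cell identity genes summed to 7274 to 8354 CPM in every sample. In 2 groups 1 library stood apart by chi-square per gene, a measure that grows with depth. CD8.2 replicate 3, the deepest library, was at 87.6 and 58.2 against CD8.2 replicates 1 and 2, which were at 14.05 from each other. CD8.1 replicate 1 was at 31.7 and 33.2 against CD8.1 replicates 2 and 3, which were at 8.80, and pairs in the B6 groups were at 12.8 to 21.3. Leaving out CD8.2 replicate 3 changed no call of the 7 genes in the edgeR fits: in CD8Dual *Trac* was then at log2 0.65, *Cd247* at 0.50, *Trbc2* at 0.34 and *Cd3d* at -0.39 (edgeR BH adjusted p-values of 0.00206, 0.00952, 0.0163 and 0.0122). Leaving out CD8.1 replicate 1 did change calls, and values without it stand beside those results.

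All 7 genes were highly expressed in every sample. They held 0.398% to 0.532% of all counts, and their ranks among the 13118 tested genes lay between 117 and 461.5, from the best rank of *Trac* to the worst of *Cd247*. Levels of different genes are compared per kilobase of merged exons. On that scale *Trbc2* was highest, with a mean over the 12 samples of 1325 CPM per kilobase and a range of 1127 to 1615. *Trac* followed at 894 (643 to 1257), with *Trbc1* at 608 (557 to 697) and *Cd3d* at 481 (374 to 542). *Trac* overlapped with *Trbc2* and with *Trbc1*, while *Cd3d* lay below all 3 constant regions. *Cd3g* had 226 (205 to 240), and *Cd3e* at 79.5 (65.9 to 87.8) and *Cd247* at 76.6 (53.3 to 110) overlapped as the 2 lowest. The order within CD3 depends on the length used. Over the longest coding transcript, *Cd3g* had 721 CPM per kilobase, *Cd3d* 540, *Cd3e* 222 and *Cd247* 138, so that *Cd3g* and *Cd3d* changed places.

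**Figure D1:**
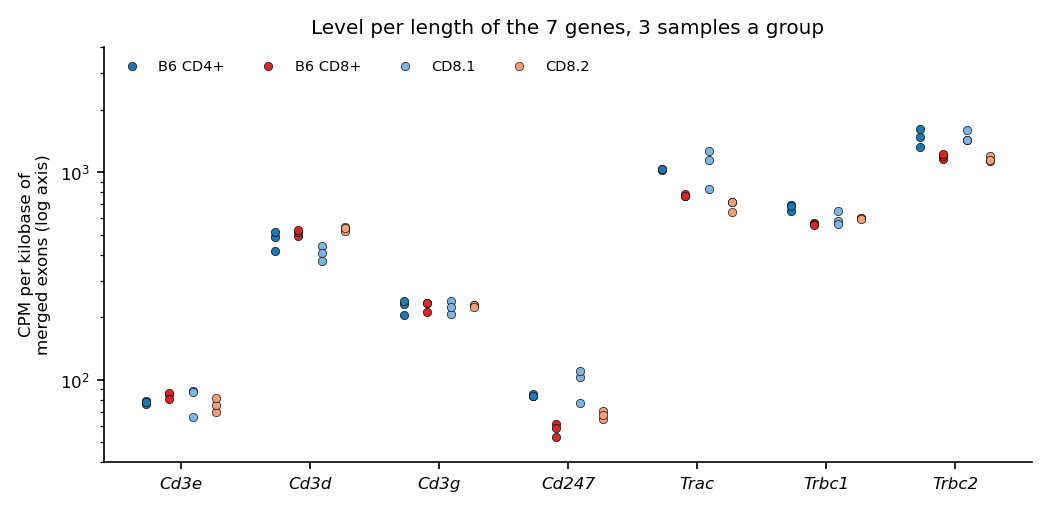
Level of each gene in CPM per kilobase of merged exons (log axis), with 1 point per sample and 4 colours for the groups. *Trbc2* was highest (1127 to 1615) and *Cd3e* and *Cd247* were lowest and overlapped (65.9 to 87.8 and 53.3 to 110).

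The genes also differed in how far they varied. *Cd3g* was the most even, with 670 to 786 CPM over all 12 samples (1.17-fold), and *Cd247* the least, with 284 to 585 CPM (2.06-fold). *Trac* spanned 1.95-fold, *Cd3d* 1.45-fold, *Trbc2* 1.43-fold, *Cd3e* 1.33-fold and *Trbc1* 1.25-fold. Between group means the range was 1.68-fold for *Cd247*, 1.56-fold for *Trac* and 1.01-fold for *Cd3g*.

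**Figure D2:**
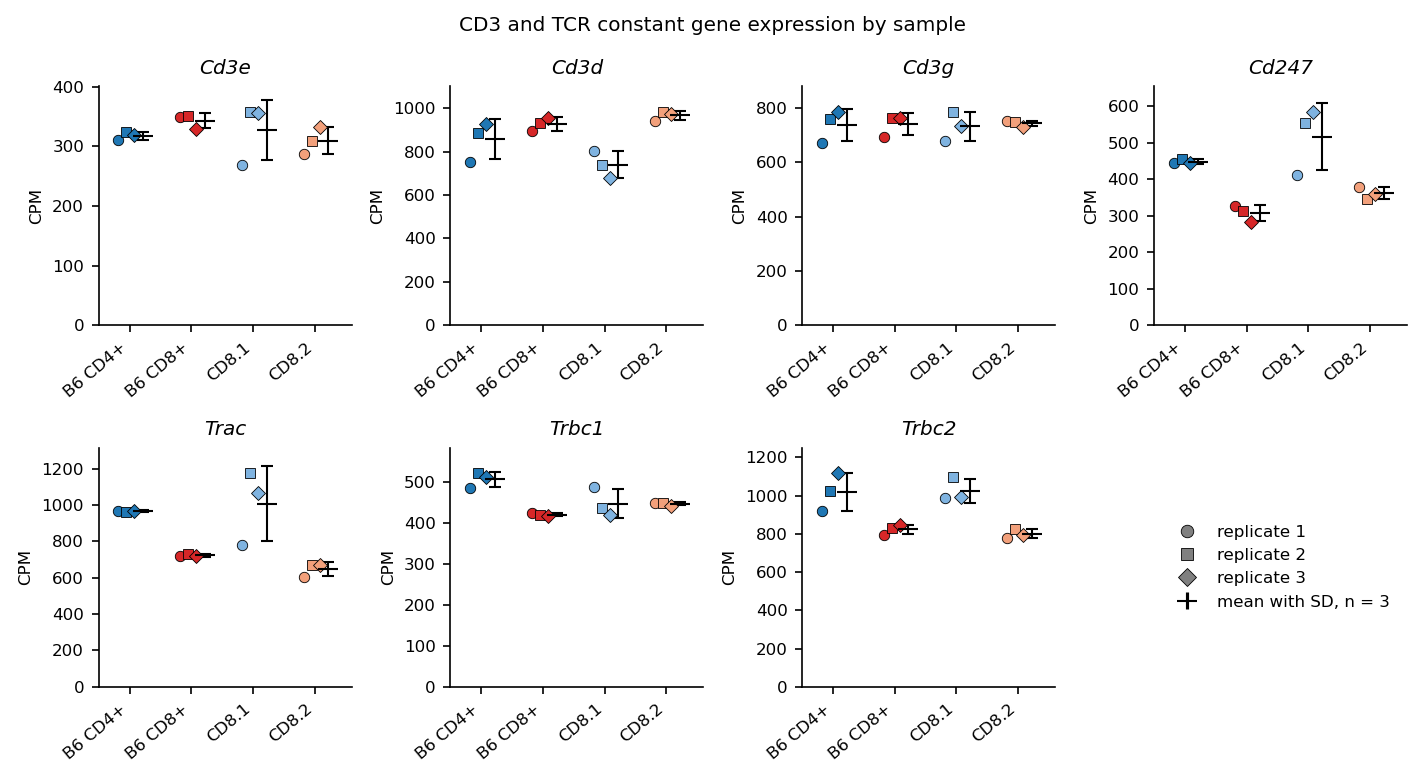
CPM of each gene by sample in the 4 groups, each axis starting at 0, with marker shapes for replicates 1 to 3 and bars for the mean and SD (n = 3). *Cd247*, *Trac* and *Trbc2* were higher on the *Cd4*-locus side in both strains, *Cd3g* was level (670 to 786 CPM), and CD8.1 replicate 1 lay apart for *Trac* (778 CPM).

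The first comparison was between B6 CD4+ helper and B6 CD8+ cytotoxic T cells. The ζ chain and all 3 constant regions were higher in CD4+ T cells, by 1.21-fold to 1.45-fold, while none of the 3 CD3 genes passed the test. Thus 4 of the 7 genes were called at an adjusted p under 0.05, where 23.1% of all tested genes were called. All 4 were higher and 0 were lower, against 11.4% and 11.7% of all genes. None passed the study's limits of more than 5-fold and an unadjusted p under 0.05, which 3.29% of genes met. The median absolute log2 fold change was 0.27 over the 7 genes and 0.20 over all tested genes.

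*Cd247*, which encodes the ζ chain with most of the ITAMs of the complex, had 444, 456 and 444 CPM in the 3 B6 CD4+ samples and 327, 313 and 284 CPM in the 3 B6 CD8+ samples. Every CD4+ sample was above every CD8+ sample. The log2 fold change was 0.54 (SE 0.105, edgeR quasi-likelihood test, Benjamini-Hochberg adjusted p = 0.00119), or 1.45-fold (95% interval 1.25 to 1.70). *Pou2f1*, a gene on the other strand that overlaps *Cd247*, had a mean of 31.9 CPM over all samples and was not called (log2 0.07, edgeR adjusted p = 0.734). Whether the authors' counting used strand is not given in the sources used here.

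*Trac*, the constant region of the α chain, had 970, 960 and 966 CPM in B6 CD4+ and 720, 733 and 719 CPM in B6 CD8+ T cells. The groups did not overlap, and their coefficients of variation were only 0.500% and 1.09%. The log2 fold change was 0.42 (SE 0.110, edgeR, BH adjusted p = 0.0119), or 1.33-fold (95% interval 1.13 to 1.57).

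Both β constant regions were higher in CD4+ T cells. *Trbc1* had 486, 522 and 513 CPM in CD4+ and 425, 420 and 417 CPM in CD8+ T cells, and *Trbc2* 918, 1026 and 1117 CPM in CD4+ and 796, 830 and 844 CPM in CD8+ T cells. Neither gene's groups overlapped. Their log2 fold changes were nearly the same, 0.27 (SE 0.0676) and 0.31 (SE 0.0772), with edgeR BH adjusted p-values of 0.00825 and 0.00787.

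The CD3 genes did not follow this direction. *Cd3e*, shared by both CD3 heterodimers, had 310, 324 and 319 CPM in CD4+ and 350, 350 and 329 CPM in CD8+ T cells. CD8+ samples were higher without overlap, but the log2 difference of -0.11 did not pass the test (95% interval -0.31 to 0.09, edgeR BH adjusted p = 0.479). *Cd3d*, the δ chain, had 753, 887 and 929 CPM in CD4+ and 894, 933 and 955 CPM in CD8+ T cells (log2 -0.11, 95% interval -0.29 to 0.06, edgeR BH adjusted p = 0.382). *Cd3g*, the γ chain, had 670, 757 and 783 CPM in CD4+ and 693, 764 and 761 CPM in CD8+ T cells, and its log2 difference was -0.01 (95% interval -0.17 to 0.16). The intervals of all 3 thus exclude a CD4+ excess of the size seen for *Cd247* (log2 0.54) and *Trac* (log2 0.42).

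CD8.1 and CD8.2 T cells, which both display CD8, were compared next. *Cd247*, *Trac* and *Trbc2* were higher in CD8.1 T cells, by 1.28-fold to 1.56-fold, and *Cd3d* was lower. The call was met by 4 of the 7 genes, where 28.7% of all tested genes were called. Of these 4, 3 were higher and 1 lower, against 14.9% and 13.8% of all genes, and none met the limits of more than 5-fold and p under 0.05, which 3.32% of genes met. The median absolute log2 fold change was 0.36 for the 7 genes and 0.24 for all tested genes.

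*Trac* had the largest difference of the 7. It had 778, 1176 and 1067 CPM in CD8.1 and 602, 669 and 671 CPM in CD8.2 T cells. CD8.1 replicate 1 was well below the other two CD8.1 samples but above every CD8.2 sample. The log2 fold change was 0.64 (SE 0.111, edgeR, BH adjusted p = 0.000506), or 1.56-fold (95% interval 1.32 to 1.83), and 0.78 without CD8.1 replicate 1.

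*Cd247* had 411, 552 and 585 CPM in CD8.1 and 379, 345 and 360 CPM in CD8.2 T cells. The groups did not overlap, although CD8.1 replicate 1 came close to CD8.2 replicate 1. The log2 fold change was 0.51 (SE 0.105, edgeR, BH adjusted p = 0.00183), and 0.64 without CD8.1 replicate 1.

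Of the β constant regions, *Trbc2* was higher in CD8.1 T cells and *Trbc1* did not pass the test. *Trbc2* had 985, 1099 and 993 CPM in CD8.1 and 780, 826 and 792 CPM in CD8.2 T cells, without overlap (log2 0.36, SE 0.0773, edgeR BH adjusted p = 0.00264), and was at 0.37 without CD8.1 replicate 1. *Trbc1* had 487, 436 and 419 CPM in CD8.1 and 450, 449 and 443 CPM in CD8.2 T cells, so that the CD8.2 samples lay within the spread of the CD8.1 samples. Its log2 difference was 0.0013 (95% interval -0.14 to 0.15), and -0.08 without CD8.1 replicate 1 (edgeR, BH adjusted p = 0.284).

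*Cd3d* was the only one of the 7 called lower in CD8.1 T cells. It had 801, 740 and 680 CPM in CD8.1 and 942, 984 and 976 CPM in CD8.2 T cells, without overlap (log2 -0.39, SE 0.0834, edgeR BH adjusted p = 0.00276), and the log2 difference was -0.46 without CD8.1 replicate 1. Its divergent neighbour *Cd3g* had 677, 786 and 733 CPM in CD8.1 and 750, 747 and 730 CPM in CD8.2 T cells, with a log2 difference of -0.02 (95% interval -0.19 to 0.14) that was 0.02 without CD8.1 replicate 1. *Cd3e* had 269, 358 and 355 CPM in CD8.1 and 287, 308 and 333 CPM in CD8.2 T cells, with CD8.1 replicate 1 below all CD8.2 samples and the others above them. It was not called with all samples (log2 0.08, edgeR BH adjusted p = 0.564) but was called without CD8.1 replicate 1 (log2 0.19, edgeR BH adjusted p = 0.0341). That fit called 37.4% of all genes tested in it.

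Markers of other cells differed between these groups, and each list is given for both B6 groups (CD4+ before CD8+) and then for CD8.1 before CD8.2 T cells. The summed level of 7 regulatory T cell markers was 157 to 233, 55.9 to 60.2, 409.8 to 473 and 55.2 to 57.5 CPM, and *Foxp3*, their defining factor, had 38.3 ± 6.00, 0.333 ± 0.178, 139.7 ± 33.9 and 1.24 ± 0.371 CPM (SD, n = 3). Of the 7 markers, only *Il10* had no count in a group (B6 CD8+). The 12 B cell markers summed to 839.6 to 923, 802 to 859, 1119.97 to 1506 and 799 to 1128 CPM, with none at 0 in any group. The 7 γδ T cell markers summed to 11.9 to 13.01, 9.498 to 11.6, 18.7 to 20.96 and 8.66 to 10.05 CPM, with *Sox13* and *Il23r* at 0 in B6 CD8+ and *Il23r* at 0 in CD8.2 T cells. The 6 NK cell markers, which many CD8+ T cells share, summed to 8.37 to 10.1, 579 to 675, 16.7 to 24.1 and 455 to 516 CPM, with *Klra8* at 0 in CD8.1 T cells. The 4 NKT cell markers summed to 95.6 to 110.02, 98.2 to 108, 127 to 141 and 116 to 123.4 CPM. Of their defining genes *Zbtb16* and *Il4* were at 0 in both B6 groups and *Il4* in CD8.2 T cells. The B6 sums thus came only from *Slamf6* and *Klrb1c*, and *Klrb1c* was also on the NK cell list. The 11 myeloid and dendritic cell markers summed to 67.7 to 83.2, 82.7 to 86.2, 101 to 111 and 81.6 to 106 CPM, with *Cd14* at 0 in B6 CD8+ and CD8.2 T cells and *S100a9* at 0 in CD8.2 T cells, and the 5 erythroid markers to 2.23 to 26.2, 0.614 to 15.8, 1.85 to 26.3 and 2.56 to 3.18 CPM, with none at 0 in every sample of a group. Mitochondrial genes held 3.12% to 3.92%, 2.46% to 3.26%, 4.93% to 5.54% and 1.84% to 3.08% of counts. The part of these in the differences of the 7 genes was not tested. In bulk RNA, fewer cells of a type and less RNA per cell cannot be told apart.

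**Figure D3:**
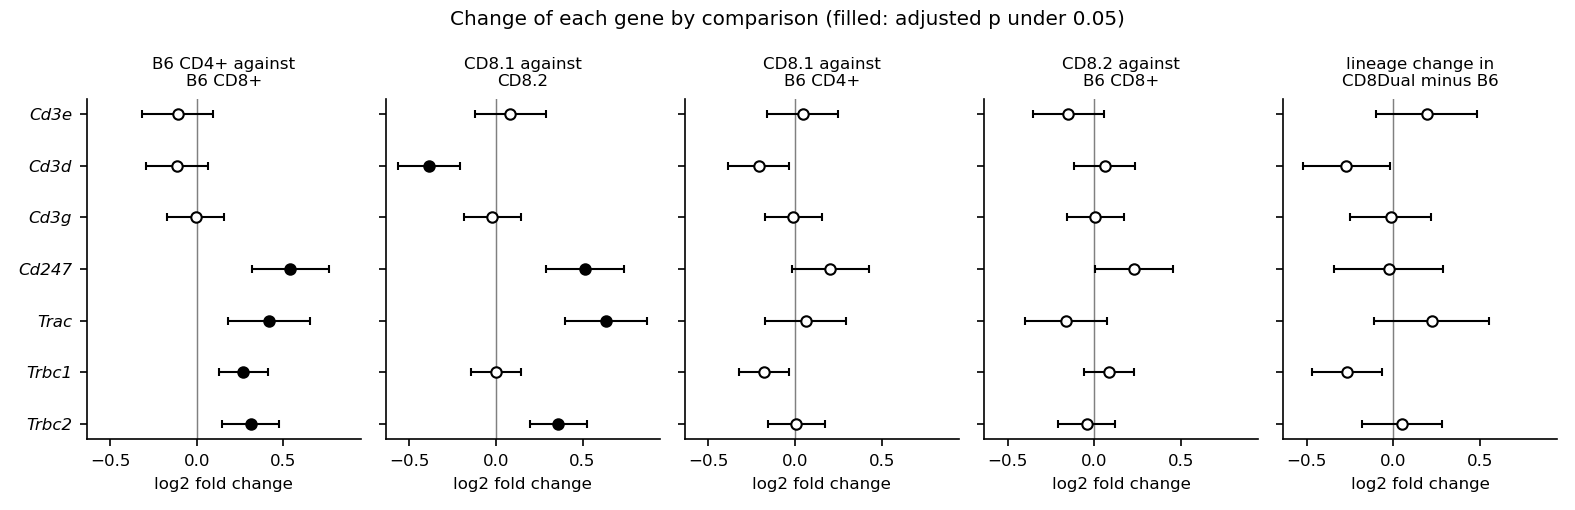
Log2 fold change of each gene with its 95% interval in the 4 group comparisons and in the difference between strains, filled where the adjusted p was under 0.05. *Cd247*, *Trac* and *Trbc2* were called higher on the *Cd4*-locus side in both strains, *Trbc1* was called in B6 and *Cd3d* (lower) in CD8Dual, and no gene was called in the 3 panels to the right.

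CD8.1 T cells were then compared with B6 CD4+ T cells, and CD8.2 with B6 CD8+ T cells. These comparisons use the same samples as the first pair, so their values are given side by side and are not independent of them. None of the 7 genes was called in the former comparison, where 12.8% of all tested genes were called, and none in the latter, where 7.94% were. By edgeR's unadjusted p under 0.05 the counts were 2 and 1 of the 7 genes, where 3771 and 3108 of the 13118 tested genes met that limit. The DESeq2 Wald test called *Trbc1* in the former comparison (adjusted p = 0.0488) and no member in the latter.

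Of CD8.1 against B6 CD4+ samples, *Trbc1* was at log2 -0.18 (95% interval -0.32 to -0.04, edgeR BH adjusted p = 0.0926) and *Cd3d* at -0.21 (95% interval -0.39 to -0.03, edgeR BH adjusted p = 0.111). *Cd247* was at 0.20 (95% interval -0.02 to 0.43), while *Trbc2* (0.0071), *Cd3g* (-0.0095), *Cd3e* (0.04) and *Trac* (0.06) lay close to 0. This outcome rests on CD8.1 replicate 1. Without it 4 members were called, *Cd247* at log2 0.33, *Trac* at 0.20, *Trbc1* at -0.26 and *Cd3d* at -0.28 (edgeR BH adjusted p-values of 0.00393, 0.0325, 0.00524 and 0.0226), and the count over all tested genes went from 1674 (12.8%) to 2958 (22.1%). Without B6 CD4+ replicate 1, *Cd3d* alone was called (log2 -0.30, edgeR BH adjusted p = 0.0397), and that fit called 765 of 13438 tested genes (5.69%).

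Between CD8.2 and B6 CD8+ T cells the largest log2 difference was 0.23 for *Cd247* (95% interval 0.01 to 0.45, edgeR BH adjusted p = 0.196), with all CD8.2 samples (345 to 379 CPM) above all B6 CD8+ samples (284 to 327 CPM). In a fit of these 2 groups alone it was called (edgeR BH adjusted p = 0.0208), and that fit called 2515 genes, against 1042 in the fit of all groups. *Trac* was at -0.16, *Cd3e* at -0.15, *Trbc1* at 0.09, *Cd3d* at 0.06, *Trbc2* at -0.04 and *Cd3g* at 0.0056, none of them called.

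Whether the lineage difference itself changed with the strain was tested as an interaction, the lineage change in CD8Dual minus that in B6. No member was called, where 1.87% of all tested genes were. *Trbc1* was at log2 -0.27 (95% interval -0.47 to -0.06, unadjusted p = 0.0133 and adjusted p = 0.234 by edgeR with BH) and *Cd3d* at -0.27 (95% interval -0.52 to -0.02, unadjusted p = 0.0359 and adjusted p = 0.336 by edgeR with BH). For *Cd247* it was -0.03 (95% interval -0.34 to 0.29). The *Trbc1* call in B6 and the *Cd3d* call in CD8Dual are therefore not shown to differ between strains in all 12 samples. Without CD8.1 replicate 1, 3 members were called, *Cd3e* at 0.30, *Trac* at 0.36 and *Trbc1* at -0.35 (edgeR BH adjusted p-values of 0.0441, 0.0147 and 0.00991), and the count over all tested genes went from 245 (1.87%) to 1356 (10.1%).

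**Figure D4:**
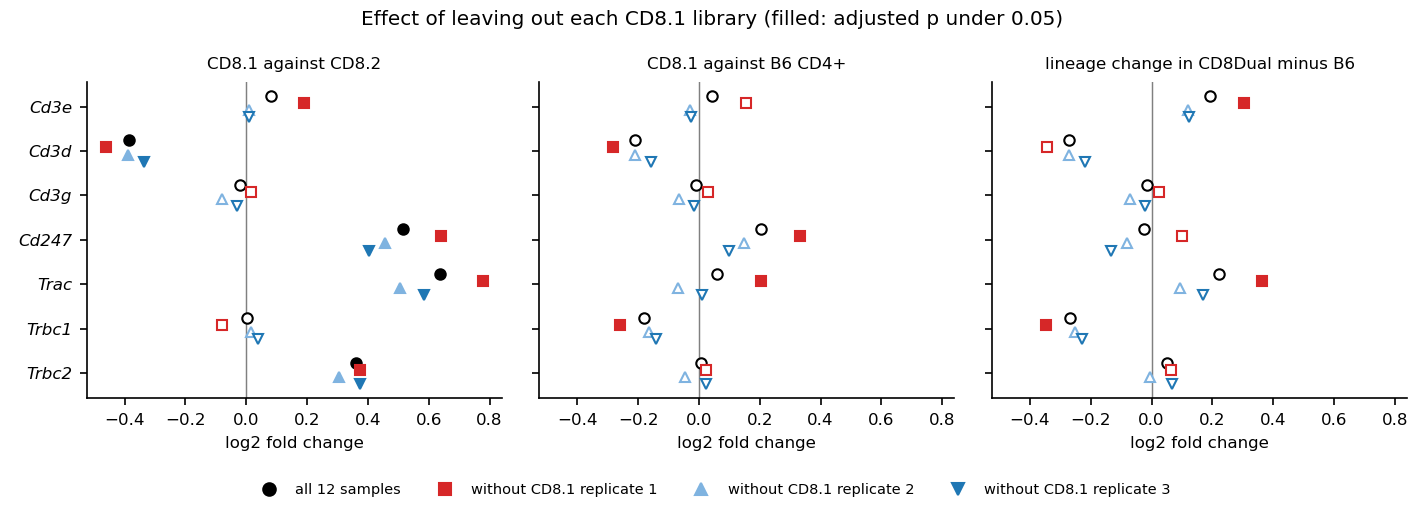
Log2 fold change of each gene with all 12 samples and with each CD8.1 sample left out in turn, filled where the adjusted p was under 0.05. In the middle panel no gene was called with all samples and 4 were called without CD8.1 replicate 1, while *Cd3d*, *Cd247*, *Trac* and *Trbc2* were called in the left panel in every case.

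Ratios within a library need no scaling between libraries, and they show how the parts of the complex stood to each other. The count of *Cd247* over that of the 3 CD3 genes was 0.256, 0.232 and 0.219 in B6 CD4+ T cells and 0.169, 0.153 and 0.139 in B6 CD8+ T cells. In CD8Dual mice it was 0.235, 0.293 and 0.331 in CD8.1 and 0.191, 0.169 and 0.177 in CD8.2 T cells. All samples of the *Cd4*-locus side were above all samples of the *Cd8*-locus side in both strains. The ratio was 1.54-fold higher in B6 and 1.59-fold higher in CD8Dual. It reuses counts tested above, and its denominator includes *Cd3d*, which was called lower in CD8.1 T cells (log2 -0.39). Alone, *Cd247* was at log2 0.54 in B6 and 0.51 in CD8Dual, while the ratio was at 0.62 and 0.67. With labels permuted freely within each strain the mean log2 difference was 0.64 (exact two-sided permutation p of 0.005, or 0.01 adjusted over 4 ratios). A p of 0.005 is the lowest this free permutation allows, and it did not keep same-numbered B6 samples together as pairs.

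The count of the 3 constant regions over that of the 3 CD3 genes behaved alike. It was 1.37, 1.27 and 1.28 in B6 CD4+ and 1.00, 0.969 and 0.968 in B6 CD8+ T cells. In CD8Dual mice it was 1.29, 1.44 and 1.40 in CD8.1 and 0.925, 0.953 and 0.935 in CD8.2 T cells. Neither strain's groups overlapped, the mean log2 difference was 0.48, and its two-sided exact permutation p was 0.005 (0.01 adjusted over 4 ratios). Labels were again permuted freely within each strain, so same-numbered B6 samples were not kept together. Between 3 and 3 samples of 1 strain alone the smallest possible p is 0.1, and both ratios reached it in both strains. Without CD8.1 replicate 1 the CD8Dual log2 difference went from 0.67 to 0.80 for the ζ ratio and from 0.55 to 0.60 for the constant region ratio. Neither lineage difference was shown to depend on the strain (exact permutation p = 0.915 for the ζ ratio and 0.63 for the constant region ratio, 0.915 and 0.84 adjusted over 4 ratios).

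**Figure D5:**
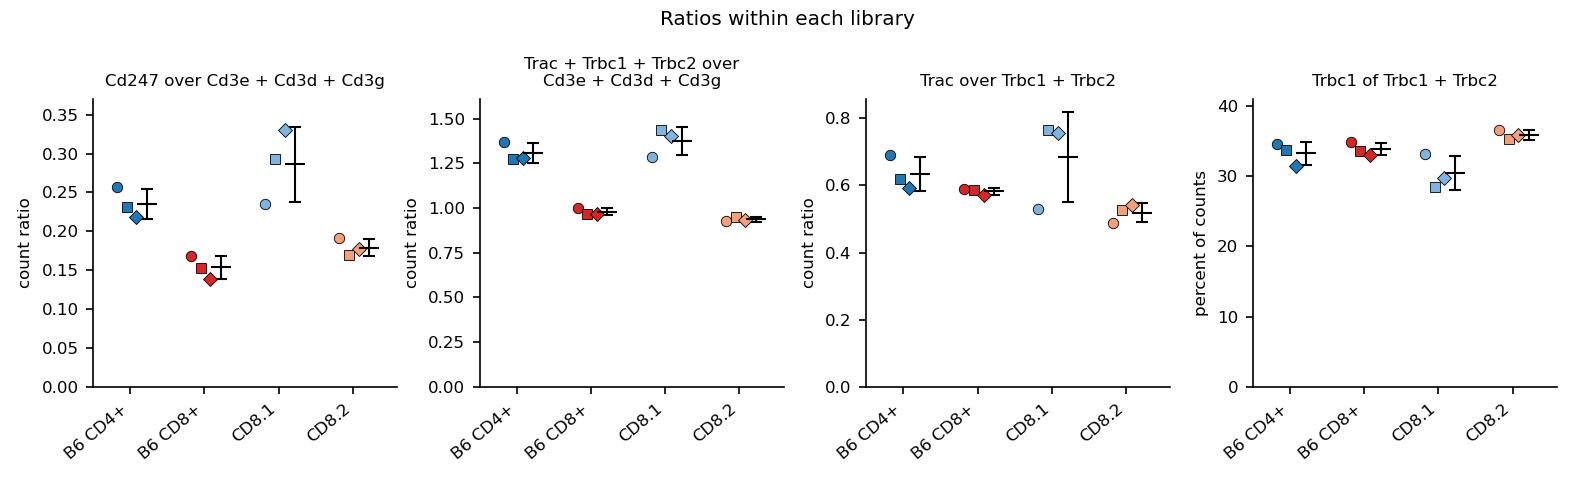
Ratios of counts within each library by group, each axis starting at 0, with marker shapes for replicates 1 to 3 and bars for the mean and SD (n = 3). The ζ to CD3 and constant region to CD3 ratios did not overlap between lineages in either strain, whereas CD8.1 replicate 1 (0.529) overlapped with CD8.2 T cells in the α to β ratio.

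The balance of α to β constant region counts was less clear. *Trac* over *Trbc1* plus *Trbc2* was 0.690, 0.620 and 0.593 in B6 CD4+ and 0.589, 0.586 and 0.570 in B6 CD8+ T cells, and 0.529, 0.766 and 0.756 in CD8.1 and 0.489, 0.525 and 0.543 in CD8.2 T cells. CD8.1 replicate 1 fell among the CD8.2 samples. The mean log2 difference within strains was 0.25 (two-sided exact permutation test with the same free labels, p = 0.02, 0.0267 adjusted over 4 ratios). Leaving out B6 CD8+ replicate 3 or any CD8.2 sample raised this p to between 0.05 and 0.085, and the log2 difference was 0.34 (exact permutation p = 0.005) without CD8.1 replicate 1.

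The share of *Trbc1* in all β constant region counts was 34.6%, 33.7% and 31.5% in B6 CD4+ and 34.8%, 33.6% and 33.1% in B6 CD8+ T cells. In CD8Dual mice it was 33.1%, 28.4% and 29.7% in CD8.1 and 36.6%, 35.2% and 35.8% in CD8.2 T cells. The 95% Wilson interval of a sample's share was at most 0.618 points to either side. The B6 groups overlapped (difference -0.56 points, exact permutation p = 0.7), and the CD8Dual groups did not (difference -5.48 points, exact permutation p = 0.1, the smallest possible, and -6.83 points without CD8.1 replicate 1). Over both strains the mean difference was -3.02 points (two-sided exact permutation p = 0.035 raw and adjusted over 4 ratios). With same-numbered samples taken as pairs the exact permutation p was 0.0625, and leaving out single samples gave 0.025 to 0.085, with values above 0.05 without B6 CD4+ replicate 3, B6 CD8+ replicate 1 or any CD8.2 sample. That the difference depends on the strain was not shown (exact permutation p = 0.105, 0.42 adjusted over 4 ratios).

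A rearranged *Trbj1* segment can be spliced to *Trbc1*, while *Trbj2* segments lie behind *Trbc1* and are spliced to *Trbc2*, so the share of *Trbj1* among joining segment counts is a second readout of the same locus. This measure was added after the data were seen and rests on only 57 to 166 *Trbj1* counts per sample. It was 13.9%, 15.7% and 19.0% in B6 CD4+, 15.99%, 15.6% and 13.8% in B6 CD8+, 21.6%, 15.9% and 15.7% in CD8.1 and 10.4%, 11.7% and 12.8% in CD8.2 T cells. All 3 CD8.1 samples were above all 3 CD8.2 samples in *Trbj1* share (difference 6.09 points, exact permutation p = 0.1, the smallest possible) and below all 3 in *Trbc1* share. The 2 readouts thus ran in opposite directions in CD8Dual mice, and why was not tested.

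Other genes of the pathway were taken from 4 lists, and at most 2 genes in each direction are named per list and strain. Of 20 genes of TCR and CD3 assembly, adaptors and turnover, 2 were higher and 4 lower in B6 CD4+ than in B6 CD8+ T cells, and 5 were higher and 4 lower on the CD8.1 side of the CD8Dual comparison, against 23.1% and 28.7% of all genes called. *Trat1*, whose product TRIM is an adaptor bound to the complex, was 4.56-fold higher in B6 CD4+ (79.9 ± 6.24 against 17.5 ± 1.28 CPM) and 4.21-fold higher in CD8.1 T cells (63.8 ± 8.81 against 15.2 ± 1.13 CPM, SD, n = 3). *Sla2*, an adaptor that promotes turnover of the receptor, was 1.83-fold and 1.68-fold lower on the *Cd4*-locus side. *Nedd4*, a ubiquitin ligase, was 12.96-fold lower in B6 CD4+ (6.88 ± 3.99 against 88.9 ± 12.4 CPM) and 10.8-fold lower in CD8.1 T cells (5.61 ± 1.98 against 61.1 ± 0.0735 CPM). All 6 differences passed edgeR's test, with BH adjusted p-values of at most 1.62e-05. *Nck2*, an adaptor that binds CD3ε, was 1.24-fold higher in B6 CD4+ T cells, and *Rnf128*, a ubiquitin ligase, 3.52-fold higher in CD8.1 T cells at only 0.589 against 0.140 CPM. These 2 calls were lost in 5 of 17 and 9 of 16 alternatives.

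Of 26 proximal TCR signalling genes, 5 were higher and 6 lower in B6 CD4+ T cells, and 8 were higher and 8 lower in CD8.1 T cells, where 11.4% and 11.7% of all genes were called in B6 and 14.9% and 13.8% in CD8Dual. *Cd28*, the costimulatory receptor, was 2.65-fold and 2.33-fold higher on the *Cd4*-locus side, and *Cd5*, an inhibitory receptor whose level follows TCR signal strength, 2.06-fold and 2.25-fold higher. *Ptpn22*, a phosphatase acting on Lck, was 1.95-fold and 1.78-fold lower. The adaptor *Lax1* was 1.73-fold lower in B6 CD4+ and the kinase *Tec* 1.93-fold lower in CD8.1 T cells. Of 20 factors known to act at *Tcra*, *Tcrb* or *Cd3* enhancers and promoters, 6 were higher and 3 lower in B6 CD4+ and 5 higher and 3 lower in CD8.1 T cells, against the same shares of all genes. *Runx1* was 2.77-fold and 2.19-fold higher on the *Cd4*-locus side, *Ets1* 1.57-fold higher in B6 CD4+ and *Gata3* 1.83-fold higher in CD8.1 T cells. *Runx3*, a factor of the cytotoxic lineage, was 1.78-fold and 1.56-fold lower, and *Tcf12*, which encodes the E protein HEB, 1.45-fold and 1.38-fold lower. In the interaction 0 of the 26 signalling genes and 0 of the 20 factors were called, where 1.87% of all tested genes were. Of the 20 assembly genes 1 was called higher and 0 lower. Signalling genes and factors named for 1 strain only are therefore not shown to differ between strains.

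The remaining list held the γδ constant regions and the pre-TCR and recombination genes. Tested were 5 of the 8 found, and *Ptcra*, *Rag1* and *Rag2* had at most 2 counts in any sample. In B6 CD4+ T cells 2 were higher and 2 lower than in B6 CD8+ T cells, against 11.4% and 11.7% of all genes. In the CD8Dual comparison 4 were higher and 0 lower in CD8.1 T cells, against 14.9% and 13.8% of all genes. *Dntt*, the terminal transferase that adds bases at V(D)J joints, was 1.98-fold and the δ constant region *Trdc* 1.38-fold higher in B6 CD4+ T cells. *Tcrg-C1* was 2.90-fold lower in B6 CD4+ T cells and 4.27-fold higher in CD8.1 T cells, all at group means of 0.406 to 2.08 CPM. *Tcrg-C2* was 2.80-fold lower in B6 CD4+ T cells (0.303 against 0.852 CPM), a call lost in 3 of 16 alternatives. *Tcrg-C4* was 8.17-fold higher in CD8.1 T cells (1.53 against 0.180 CPM). Its CD8.2 mean lay close to the floor of 0.0875 to 0.167 CPM. In the interaction (lineage change in CD8Dual minus that in B6) 3 of the 5 tested genes were called higher and 0 lower, where 1.87% of all genes were called. Between strains, where 12.8% of all genes were called for CD8.1 against B6 CD4+ and 7.94% for CD8.2 against B6 CD8+, the list members called higher and lower in the former were 3 and 0 here, 3 and 1 for assembly, 1 and 4 for signalling and 0 and 4 for factors. In the latter they were 1 and 1, 0 and 0, 2 and 2, and 2 and 1. Leaving out single samples moved the totals over all genes between 765 and 2958 and between 431 and 802, and the list counts were not repeated there. Of the 14 genes named for CD8.1 against CD8.2, 13 kept their call without CD8.1 replicate 1 and *Rnf128* lost it.

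Genes within 50000 bases of the 7 were examined for differences that extended beyond the members. Near the CD3 cluster, *Mpzl3* was higher on the *Cd4*-locus side in both strains (log2 1.46 and 0.94, edgeR BH adjusted p-values of 3.71e-08 and 6.48e-06), while *Ube4a* (log2 0.11 and 0.14) and *Atp5l* (log2 -0.01 and 0.08) were not called. Next to *Trac*, *Dad1* was at log2 0.17 and 0.21 and *Abhd4* at 0.05 and 0.35, and next to *Cd247*, *Creg1* was at 0.12 and 0.11, none of them called. *Gm16565*, which overlaps *Cd247*, was called in CD8Dual (log2 1.34, edgeR BH adjusted p = 0.0155) and not in B6 (log2 0.45), at a mean of 0.643 CPM. *Prss2*, near *Trbc1*, was lower in B6 CD4+ T cells (log2 -2.71, edgeR BH adjusted p = 0.000622) and not called in CD8Dual (log2 -1.01), at a mean of 1.13 CPM. In the interaction none of these neighbours was called, with *Mpzl3* at log2 -0.52, *Gm16565* at 0.88 and *Prss2* at 1.70 (edgeR BH adjusted p-values of 0.0989, 0.504 and 0.291). A strain difference in them is therefore not shown. The neighbours were not refitted without single samples.

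The genes nearest in pattern, by Pearson r of log2 CPM over the 12 samples among 12921 candidates, were *Atp6v1d* (r = 0.987) and *Orai1* (r = 0.979) for *Cd247*, *B3galt4* (0.979) and *Ctse* (0.969) for *Trac*, and *Qsox1* (0.980) and *Atp6ap1* (0.980) for *Trbc2*. For *Cd3d* they were *Snrpd2* (0.963) and *Pigp* (0.957), for *Trbc1* *Cox14* (0.908) and *Ate1* (0.907), for *Cd3e* *Rnf126* (0.914) and *Plbd2* (0.895), and for *Cd3g* *Denr* (0.883) and *Pan2* (0.877). The 12 points are 4 groups of 3, so group levels enter every value, and the 7 genes were not themselves candidates. The closest members were *Trac* and *Trbc2* (r = 0.882) and the most opposed were *Cd3d* and *Cd247* (r = -0.805), again over 12 samples in 4 groups.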

How the data were processed

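RNA-seq of 12 samples was analysed. Read pairs were aligned to mm10 by the authors with STAR, and RSEM gave the deposited gene-level counts, which are not normalized. The submitters' processing notes also list limma, with no role given. Versions, annotation and use of strand are not given in the sources used here. Groups and replicate numbers came from the labels, and every column matched a sample (0 columns without one).

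All 12 samples entered 1 quasi-likelihood model of edgeR 4.0.16 under R 4.3.3, with a coefficient per group, TMM factors and the filterByExpr filter, and p-values were adjusted by Benjamini-Hochberg over all tested genes. The study states no RNA-seq test beyond its unpaired Student test and its fold limit of 5. Standard errors were the log2 fold change over the square root of F. The fit was tested on simulated data. Ratios were taken on counts and tested by two-sided exact permutation over samples, within strain where stated. No 2 replicates agreed within sampling noise (chi-square per gene at least 8.80). Replicate numbers in the labels were checked as pairs: deviations of same-numbered samples correlated at 0.126 to 0.257 in all 3 B6 pairs and at -0.0039 to 0.119 in the CD8Dual pairs, so they were taken to pair samples in B6 only. The main fit and the main permutations did not use these pairs, which entered only through the replicate blocks among the alternatives.

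The members and lists were chosen with earlier results of these data known. Genes named were the members, from each list at most the 2 largest differences in each direction among called genes without overlap, the 2 genes nearest each member in pattern, and neighbours within 50000 bases. List genes that this rule named between strains are given as counts only, a choice made after their values were seen. Of 49585 identifiers, 49326 matched GENCODE M21. Alternatives were DESeq2 1.42.0 (size factors or Wald test), limma 3.58.1 (voom), library totals or upper-quartile scaling, no filter or a mean of 1 CPM, only the groups compared, no receptor segments, replicate blocks, each sample left out, other call limits and other lengths. The *Trbj1* share, the tests of ratios between strains and the alternatives for listed genes were added after the data were seen. Figures used matplotlib 3.10.9 under Python 3.11.15.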

Additional observations from a re-analysis of the deposited data

How the results depend on the processing

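All 8 calls of members within the strains kept their direction and an adjusted p under 0.05 in each of 17 alternatives, and the replicate block shared by all groups or set within each strain changed none of them (*Cd247* in B6, log2 0.54 under the block within strains). The 45 member values that changed sign were all of uncalled genes and at most 0.10 in log2. They were, for *Cd3g* in B6, 0.00039 (DESeq2 size factors), 0.038 (library totals), 0.031 (upper quartile), 0.00041 (DESeq2 Wald), 0.0088 (mean of 1 CPM) and 0.0033 (only the groups compared). With library totals they were 0.027 for *Cd3g* in CD8Dual, -0.016, -0.00072 and -0.049 for *Cd3e*, *Trac* and *Trbc2* between CD8.1 and B6 CD4+, and -0.0015 and -0.056 for *Cd3d* and *Cd3g* between CD8.2 and B6 CD8+. Upper-quartile scaling gave *Cd3g* 0.033 in CD8Dual, 0.016 between CD8.1 and B6 CD4+ and 0.0028 in the interaction. *Trbc1* in CD8Dual was -0.0016 with voom, -0.017 with no filter and -0.0017 with the block within strains, and *Trbc2* between CD8.1 and B6 CD4+ was -0.00041 with no filter. Leaving out single samples gave *Cd3g* -0.049 to 0.049 in B6, -0.079 to 0.017 in CD8Dual, -0.084 to 0.031 between CD8.1 and B6 CD4+, -0.047 to 0.020 between CD8.2 and B6 CD8+ and -0.079 to 0.025 in the interaction. It gave *Trbc1* in CD8Dual -0.079 to 0.038, *Cd247* and *Trbc2* in the interaction -0.13 to 0.10 and -0.020 to 0.10, and, between CD8.1 and B6 CD4+, *Cd3e* -0.028 to 0.16, *Trac* -0.068 to 0.20, *Trbc2* -0.074 to 0.051 and the α to β ratio -0.0027 to 0.26. Members called between CD8.1 and B6 CD4+ were 0 to 4 with single samples left out and 1 by DESeq2's Wald test, those between CD8.2 and B6 CD8+ 1 with only those groups fitted, those in the interaction 0 to 3 with samples left out, and those past 5-fold 0 in both strains. Genes called with samples left out were 765 to 2958 (CD8.1 against B6 CD4+), 431 to 802 (CD8.2 against B6 CD8+) and 165 to 1356 (interaction). They were 410 by DESeq2 and 620 with no filter in the interaction, 1593 with no filter and 2515 with only the groups compared for CD8.2 against B6 CD8+, and 674 with only the groups compared for CD8.1 against B6 CD4+. In the order B6, CD8Dual, CD8.1 against B6 CD4+, CD8.2 against B6 CD8+ and interaction, more than 5-fold and p under 0.05 gave 431, 435, 80, 76 and 152 genes, and an adjusted p under 0.01 gave 1977, 2199, 554, 339 and 131. The *Trbc1* share in B6 was 0.11 points by medians and -1.24 to 0.34 with samples left out. Its difference over both strains was -3.02 by medians (exact permutation p = 0.2) and by the replicate block (exact p = 0.0625), and -3.70 to -2.53 with samples left out, and the α to β ratio's 0.20 to 0.34. Causes were not tested. Exact permutation tests of 3 against 3 samples cannot give a p under 0.1. Of the pathway genes named within strains, only *Nck2*, *Rnf128* and *Tcrg-C2* lost their call, in 5, 9 and 3 alternatives.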
